A study of Mus musculus with 64 samples.

Results

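Valproate (VPA), a branched fatty acid that is used as a mood stabiliser and anticonvulsant and that inhibits class I histone deacetylases, was compared with its vehicle in the ventral tegmental area of mice labelled Clock delta 19 mutant. The comparison took the 8 libraries whose labels give the mutant genotype and VPA, and the 13 whose labels give the mutant genotype and the vehicle of VPA, which are 21 of the 64 libraries of the series. All 21 came from adult male mice of strain 129S1/Svlm that had received VPA or vehicle for 14 days. Collection was at zeitgeber time 6, roughly 24 hours past the final treatment. The tissue was a set of bilateral punches of 1 mm centred on the ventral tegmental area, each library is 1 mouse by the design text, and poly(A) RNA was read in 75-base reads. The Clock delta 19 allele is a germline change that the labels give to both groups: it makes a CLOCK protein that binds DNA but activates its targets poorly. The age beyond adult, the dose and the route are not given in the sources used here. The other groups used below are wildtype-labelled mice given VPA (8 libraries) or its vehicle (3), and mutant-labelled mice given ACY957, a deacetylase inhibitor, (8) or the vehicle of ACY957 (11), all of the same strain, age class and duration of treatment. The design text gives 8 mice per group, whereas the labels put 13 in the mutant vehicle group and 3 in the wildtype one, and the 2 counts were not reconciled.

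The ventral tegmental area is the midbrain home of dopamine neurons, which make dopamine with tyrosine hydroxylase (Th) and project to the nucleus accumbens and prefrontal cortex. It borders the posterior and lateral hypothalamus in front, where neurons of melanin-concentrating hormone (Pmch) and of orexin (Hcrt) lie, and the thalamus above. A punch of bulk tissue pools all of these cell types and their neighbours, so that fewer cells of a type and less RNA per cell cannot be told apart in any value below. Histone deacetylase inhibition raises histone acetylation and, in many cell types, the transcripts of cell cycle inhibitors and metallothioneins. The circadian clock is a loop in which CLOCK and its partner BMAL1 (Arntl) drive the Per, Cry and Nr1d repressors and output genes such as Dbp, which in turn follow the time of day.

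The 21 libraries held 21.3 M to 30.6 M counts (median 26 M), 25.2 M to 28.2 M under VPA and 21.3 M to 30.6 M under vehicle, and correlated at 0.948 to 0.9889 in log2 CPM, the count scaled to library depth. No pair looked like 1 library deposited again: over 210 pairs the lowest mean chi-square per gene was 6.55. Th lay under 8 log2 CPM in 3 libraries, VPA replicates 2 and 8 (44.1 and 26.2 CPM) and vehicle replicate 3 (201 CPM). In the other 6 VPA libraries Th read 303 to 1430 CPM, and in the other 12 vehicle libraries 328 to 1370 CPM. A second split was in clock output, the mean log2 CPM of 8 clock-driven genes (the repressors Ciart, Bhlhe41, Per2, Per3, Nr1d2 and Nr1d1 and the output factors Tef and Dbp). It read 4.04 to 4.32 in 7 VPA libraries and 5.0 in VPA replicate 2, whereas 7 vehicle libraries read 3.90 to 4.20 and 6 (replicates 3, 5, 6, 7, 8 and 13) read 5.03 to 5.64. Those 7 libraries stood over 4.6 log2 CPM, as did 23 of the 24 wildtype-labelled libraries (4.27 to 5.44 over all 24), so they went against their mutant label on this measure. The per-gene count of Clock itself did not check the label, since reads of the intact remainder of the mutant transcript are counted too: Clock (chr5:76209868-76304792, minus strand) read 61.1 to 82.7 CPM under VPA and 58.1 to 88.0 under vehicle, a log2 difference of -0.04 (SE 0.09, edgeR quasi-likelihood test, adjusted p = 0.88). The count of genes past the threshold is therefore given with and without these libraries, and so are some of the values below. The remaining values cover all 21 libraries only. The mouse numbers in the labels also differ: 7 of 8 VPA mice but 4 of 13 vehicle mice have a number under 48, and no label says what a number marks.

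Of 15634 genes tested, 9 passed an adjusted p of 0.05 (0.0576%): 8 rose (0.0512%) and 1 fell (0.0064%). The genes that rose were the hypothalamic neuropeptide precursors Pmch, Hcrt and Tac2, the receptors Brs3 and Calcr with the receptor partner Ramp3, and the enzyme gene Car9 and Fam47e. The gene that fell was Mcm2, a subunit of the replicative DNA helicase. At an unadjusted p under 0.05 there were 1976 genes (12.6%), 1110 higher (7.1%) and 866 lower (5.54%). In no gene (0%) did the 8 VPA libraries stand wholly apart from the 13 vehicle libraries. Without the 3 libraries low in Th, 2 genes passed (0.0128% of 15575), Pmch and Hcrt, and 1295 had an unadjusted p under 0.05 (8.31%). Without the 7 libraries over the clock output level, Pmch and Hcrt again were the 2 that passed (0.0128% of 15581), with 840 (5.39%) at an unadjusted p under 0.05. Without both kinds 0 of 15549 passed edgeR's test, with 460 (2.96%) at an unadjusted p under 0.05.

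The promoters of 4 of these genes are shown because they belong to the peptides of largest change, to a receptor and to the gene that fell. They are the RefSeq sequences of assembly GRCm38.p6, from 250 bases before to 50 after the start, 5′ to 3′ on the gene's strand: chr10:88090822-88091121 (plus strand) for Pmch, chr11:100762882-100763181 (minus strand) for Hcrt, chrX:57042824-57043123 (plus strand) for Brs3 and chr6:88898731-88899030 (minus strand) for Mcm2. Capitals mark 3 short motifs. TATAAA is the box that positions transcription in many peptide genes. CCAAT, or ATTGG where it lies on the other strand, is bound by factor NF-Y. The core of many homeodomain sites is TAATTA.
Pmch: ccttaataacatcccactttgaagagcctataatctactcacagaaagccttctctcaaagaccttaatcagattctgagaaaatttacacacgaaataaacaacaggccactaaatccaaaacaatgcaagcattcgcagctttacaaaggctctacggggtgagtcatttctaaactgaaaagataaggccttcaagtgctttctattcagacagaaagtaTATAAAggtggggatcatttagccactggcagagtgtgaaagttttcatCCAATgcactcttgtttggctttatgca
Hcrt: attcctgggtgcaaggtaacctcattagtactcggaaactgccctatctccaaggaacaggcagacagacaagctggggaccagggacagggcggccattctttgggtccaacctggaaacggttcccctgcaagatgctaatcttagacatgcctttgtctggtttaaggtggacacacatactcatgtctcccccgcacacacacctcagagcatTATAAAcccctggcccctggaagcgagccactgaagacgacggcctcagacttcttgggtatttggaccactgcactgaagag
Brs3: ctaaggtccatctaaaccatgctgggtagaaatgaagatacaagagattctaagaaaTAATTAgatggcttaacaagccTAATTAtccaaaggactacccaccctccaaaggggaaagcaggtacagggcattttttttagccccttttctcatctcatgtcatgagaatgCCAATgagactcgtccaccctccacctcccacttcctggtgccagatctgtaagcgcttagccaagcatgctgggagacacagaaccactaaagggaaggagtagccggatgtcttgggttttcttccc
Mcm2: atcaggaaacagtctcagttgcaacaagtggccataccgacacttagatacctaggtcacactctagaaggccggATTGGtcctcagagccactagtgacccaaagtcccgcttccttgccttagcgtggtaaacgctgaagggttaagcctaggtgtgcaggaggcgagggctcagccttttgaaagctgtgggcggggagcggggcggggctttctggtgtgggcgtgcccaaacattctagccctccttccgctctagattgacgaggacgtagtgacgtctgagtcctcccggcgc
Both strands were searched in the 11 promoter entries of all 9 genes. A gene counts below if any of its entries matches, whereas the shares over all promoters are per entry, so the units differ. TATAAA was found in Pmch, Hcrt and Fam47e, 3 of 9, against 13.6% of 32851 promoters. CCAAT was found in 6 of 9 against 37.4%, TAATTA only in Brs3 of the 9 against 5.29%, and the E2F letters TTTCGCGC or TTTGGCGC only in Fam47e against 0.813%. The clock E-box CACGTG and the cAMP element TGACGTCA were found in 0 of 9, against 7.15% and 1.79% of promoters. In Fam47e all matches lie in entry 2, with 0 in entry 1, and the E2F letters share a base with the CCAAT match. A match or its absence describes the letters alone.

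Pmch (chr10:88091072-88092375, plus strand, in mm10) encodes the precursor of melanin-concentrating hormone, a lateral hypothalamic peptide that promotes feeding and sleep. In VPA replicates 1 to 8 it read 9.05, 348, 5.42, 4.48, 30.3, 6.51, 98.6 and 541 CPM, and in the 13 vehicle libraries 3.28 to 13.1 CPM with a median of 6.49. VPA replicates 2, 5, 7 and 8 lay above every vehicle library and the other 4 lay inside the vehicle range. The groups averaged 130.5 ± 203.2 CPM (SD, n = 8) under VPA against 7.02 ± 3.20 CPM (SD, n = 13) under vehicle, and the log2 difference was 4.22 (SE 0.49, adjusted p = 7.77e-08 by edgeR's quasi-likelihood test). The 4 libraries with the most Pmch are the 4 VPA libraries with the least Th (544, 303, 44.1 and 26.2 CPM), and their order in Pmch is the reverse of that in Th. The low-Th vehicle library read 12.8 CPM. Vehicle replicates 1, 2 and 4 also had less Th than VPA replicate 5, at 395, 328 and 492 CPM. They read 13.1, 6.59 and 6.73 CPM of Pmch, so the order seen under VPA did not extend to them. Without the 3 low-Th libraries the difference was 1.98 (SE 0.39, adjusted p = 0.0315), from 25.7 ± 37 (n = 6) against 6.54 ± 2.81 CPM (n = 12), and without every library under 8.5 log2 CPM for Th, which removes VPA replicate 7 too, it was 0.78 and did not pass.

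Hcrt (chr11:100761069-100762931, minus strand) encodes the precursor of the orexins, wake-promoting peptides whose neurons lie beside those of Pmch and send fibres to the ventral tegmental area. It read 0.837, 18.6, 0.557, 0.314, 1.06, 0.283, 23.7 and 42.2 CPM in VPA replicates 1 to 8. Vehicle libraries read 0.152 to 1.32 CPM, so that VPA replicates 2, 7 and 8 lay above all of them and the other 5 did not. The log2 difference was 4.36 (SE 0.53, adjusted p = 1.16e-07), from 10.9 ± 15.7 against 0.533 ± 0.344 CPM. It was 3.13 without the low-Th libraries (adjusted p = 0.00193), where VPA replicate 7 alone stood above the vehicle range, and 0.18 without those under 8.5 log2 CPM, where it did not pass. In 21 fits that each left out 1 library, Pmch and Hcrt passed in all 21, with differences of 3.36 to 4.41 and 3.60 to 4.54. Each such fit kept most of the VPA libraries that stood above the vehicle range. In 17 other settings each of the 2 genes passed in 9. With limma voom and with the compared groups fitted alone, 0 genes passed. Tac2 (chr10:127724478-127731768, plus strand), the precursor of neurokinin B, a tachykinin of arcuate and other forebrain neurons, read 0.757, 30.9, 1.04, 0.511, 5.69, 0.283, 15.5 and 18.5 CPM under VPA. The same 4 libraries (2, 5, 7 and 8) exceeded the vehicle range of 0.416 to 2.88 CPM. Its difference was 2.72 (SE 0.49, adjusted p = 0.00406), and 1.65 without the low-Th libraries, where it did not pass (adjusted p = 0.481). Without VPA replicate 2 alone Tac2 no longer passed, at 2.12.

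**Figure D1:**
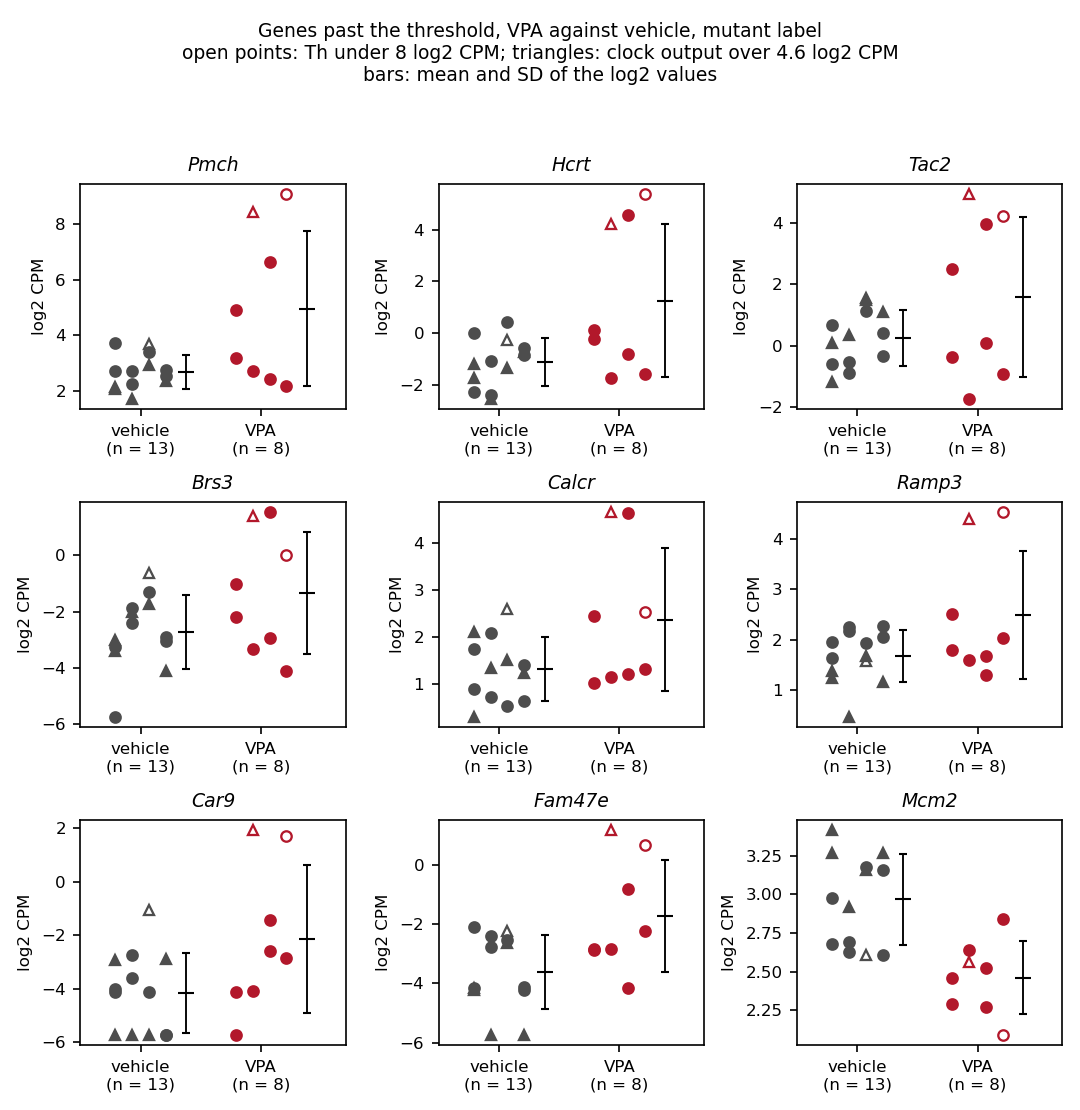
Log2 CPM of the 9 genes that passed the test, 1 panel per gene, in the 13 vehicle (grey) and 8 VPA (red) libraries, with open points for Th under 8 log2 CPM, triangles for clock output over 4.6 log2 CPM, and bars for mean and SD. In the 8 panels of genes that rose, between 2 and 4 of the 8 VPA points stand above every vehicle point, and in the panel of Mcm2 all 8 VPA points lie below the vehicle median.

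Among the receptors, Brs3 (chrX:57043074-57048758, plus strand), a bombesin-family receptor of hypothalamic neurons that regulates body weight, read 0.199, 2.59, 0.111, 0.0393, 0.471, 0.0809, 2.89 and 0.98 CPM under VPA. Vehicle libraries reached 0.624 CPM, which VPA replicates 2, 7 and 8 exceeded. Its difference was 2.26 (SE 0.48, adjusted p = 0.0245), the highest adjusted p of the 9. It passed in 14 of 21 fits that left out 1 library and failed without VPA replicate 2, 7 or 8 or vehicle replicate 4, 5, 8 or 13. Calcr (chr6:3685680-3764714, minus strand), the calcitonin receptor, read 25.4 and 24.8 CPM in VPA replicates 2 and 7 and 1.99 to 5.74 CPM in the other 6, against 1.21 to 6.0 CPM under vehicle. Its difference of 1.68 (SE 0.34, adjusted p = 0.0134) was lost without either of those 2 libraries, at 1.22 and 1.24. Ramp3 (chr11:6658521-6677475, plus strand) encodes a protein that pairs with the calcitonin receptor to form an amylin receptor. It read 20.9 and 23.1 CPM in VPA replicates 2 and 8 and 2.45 to 5.69 CPM in the other 6, against 1.37 to 4.81 CPM under vehicle. Its difference was 1.30 (SE 0.26, adjusted p = 0.0130), and 0.11 without the low-Th libraries (adjusted p = 0.902). Calcr was thus highest in VPA replicates 2 and 7 and Ramp3 in replicates 2 and 8.

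The other genes that rose were at low levels. Car9 (chr4:43506966-43513729, plus strand), a membrane carbonic anhydrase induced by low oxygen, read 3.84 and 3.25 CPM in VPA replicates 2 and 8 and 0 to 0.352 CPM in the other 6. Vehicle libraries read 0 to 0.468 CPM. Fam47e (chr5:92555069-92591279, plus strand) read 2.24, 0.547 and 1.57 CPM in VPA replicates 2, 7 and 8 and 0.0372 to 0.196 CPM in the other 5, against 0 to 0.214 CPM under vehicle. The differences were 3.60 (SE 0.71, adjusted p = 0.0108) and 2.75 (SE 0.54, adjusted p = 0.0108). Neither passed without the low-Th libraries (1.30 and 1.19, adjusted p = 0.671 and 0.599), and neither passed without VPA replicate 2 alone or VPA replicate 8 alone.

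Mcm2 (chr6:88883474-88898780, minus strand) showed another pattern. It read 5.50, 5.90, 5.72, 7.15, 4.86, 6.23, 4.80 and 4.23 CPM in VPA replicates 1 to 8. In vehicle replicates 1 to 13 it read 6.39, 6.42, 6.08, 8.92, 10.7, 7.54, 8.95, 9.63, 7.85, 6.18, 9.01, 6.08 and 9.60 CPM. All 8 VPA libraries lay below the vehicle median and 6 below the vehicle minimum, so the shift was spread over the group rather than carried by 2 or 3 libraries. The difference was -0.52 (SE 0.10, adjusted p = 0.0108), from 5.55 ± 0.92 (n = 8) against 7.95 ± 1.61 CPM (n = 13). It was -0.51 without the low-Th libraries (adjusted p = 0.100) and -0.40 without those of high clock output, neither of which passed. Against the 4 vehicle mice numbered under 48 alone it was -0.33, and with mice 25 to 35 alone on both sides -0.28, neither past the threshold (against those 4, 0 of 15551 genes passed and 4.15% had an unadjusted p under 0.05). It failed in 1 of 21 fits that left out a library, without VPA replicate 8 (-0.47, adjusted p = 0.0799). Of 12 tested genes of DNA replication and mitosis, 4 were higher and 8 lower (median -0.04), and Mcm2 alone passed. Mcm3, a partner in the same helicase, read 3.18 ± 0.42 against 4.11 ± 1.06 CPM (difference -0.37, adjusted p = 0.17), and Top2a, a topoisomerase of dividing cells, 0.271 ± 0.293 against 0.493 ± 0.296 CPM (-0.86, adjusted p = 0.43).

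The dopamine neuron genes did not pass. Th (chr7:142892752-142931128, minus strand) averaged 650 ± 538 CPM under VPA and 789 ± 363 under vehicle (difference -0.28, SE 0.37, adjusted p = 0.79), and without the 3 low-Th libraries the difference was 0.03. Those 3 libraries were chosen by their Th, and 2 of them are VPA libraries, so this shift follows from the choice. The values below for other dopamine genes without them share this choice. They cannot show whether VPA changes these genes. Of the 11 genes of dopamine synthesis, transport and breakdown 3 were higher and 8 lower, with a median of -0.27 that became 0 without the low-Th libraries (6 higher, 5 lower). Ddc, the enzyme after Th, read 562 ± 404 against 676 ± 268 CPM, and Gch1, which makes the Th cofactor, 49.9 ± 39.9 against 65.5 ± 30.7 CPM. All 11 dopamine identity factors were lower (median -0.21), with 0 passing and 0 at an unadjusted p under 0.05 (against 12.6% of all genes). Pitx3, for example, read 4.81 ± 3.98 against 6.03 ± 2.97 CPM and Nr4a2 56.1 ± 17.6 against 64.4 ± 18.3 CPM. Without the low-Th libraries 3 were higher and 8 lower (median -0.05). The summed level of the 11 synthesis genes ranged from 1180 to 10000 CPM under VPA and from 2610 to 9790 CPM under vehicle. The defining markers of the labelled tissue were low in VPA replicates 2 and 8: beside Th at 44.1 and 26.2 CPM, the mean level of the 11 identity factors there was 1.79 and 1.39 log2 CPM. It was 2.67 in VPA replicate 7, 3.34 to 4.13 in the other 5 VPA libraries and 2.76 to 4.17 under vehicle.

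Markers of the neighbouring hypothalamus were highest in VPA libraries with little Th. Of 27 hypothalamic peptides and related genes 19 were tested, and 15 were higher and 4 lower (median 0.36 against 0 over all genes), with Pmch, Hcrt and Tac2 passing and 9 at an unadjusted p under 0.05 (47.4% against 12.6% of all genes). Without the low-Th libraries 17 were higher and 2 lower (median 0.40), with Pmch and Hcrt passing and 6 at an unadjusted p under 0.05 (31.6% against 8.31%). Cartpt, a peptide shared by hypothalamic and other neurons, read 82.1 ± 110 against 96.7 ± 88.5 CPM, and Agrp, of arcuate feeding neurons, 0.209 ± 0.134 against 0.192 ± 0.0948 CPM. Trh read 4.28 ± 5.89 against 1.11 ± 0.509 CPM (difference 1.95, adjusted p = 0.19) and Hdc, the histamine-synthesising enzyme of the tuberomammillary nucleus, 9.62 ± 12.4 against 3.15 ± 2.85 CPM (1.62, adjusted p = 0.20). The summed level of the list was 214 to 989 CPM under VPA and 163 to 580 under vehicle, with VPA replicates 8, 2 and 7 the highest of the 21. VPA replicate 1 and vehicle replicate 8, with Th at 841 and 635 CPM, came next at 582 and 580 CPM. The low-Th vehicle replicate 3 read 523 CPM. Of 24 tested transcription factors of the hypothalamus and diencephalon 21 were higher and 3 lower (median 0.34), 9 at an unadjusted p under 0.05 (against 12.6% of all genes), and 0 passed edgeR's test. Among them Otp read 0.625 ± 1.01 against 0.111 ± 0.11 CPM, and Sim1 8.10 ± 5.12 against 5.47 ± 3.15 CPM, both factors of paraventricular and supraoptic neurons. Dlx1, a factor of forebrain inhibitory neurons, missed the threshold at 2.20 (adjusted p = 0.051), reading 14.9, 6.87 and 12.8 CPM in VPA replicates 2, 7 and 8 and 0.139 to 2.36 CPM under vehicle. Without the low-Th libraries 15 factors were higher and 9 lower (median 0.13). Dlx1, Hdc, Trh and the other genes named at an unadjusted p under 0.05 outside the first 4 of each list were chosen after their values were seen.

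Genes of ependymal cilia, the motile cilia of the cells that line the ventricles, were higher as a whole list: 16 of 16, with a median of 1.31, all 16 at an unadjusted p under 0.05 (against 12.6% of all genes) and 0 past the adjusted threshold. Their summed level was 34.3 to 43.1 CPM in VPA replicates 1, 3, 4, 5 and 6, 68.0 in replicate 7, 169 in replicate 2 and 174 in replicate 8. In 12 vehicle libraries it was 28.5 to 47.1 CPM and in the low-Th vehicle replicate 3 it was 95.4 CPM. Foxj1, the master factor of motile cilia, read 11.8 ± 10.2 against 7.45 ± 2.66 CPM (difference 0.67), and Tmem212 6.12 ± 9.57 against 1.07 ± 2.34 CPM (2.52). Without the low-Th libraries 14 were higher and 2 lower (median 0.31), with 1 at an unadjusted p under 0.05 (against 8.31% of all genes), and Foxj1 differed by -0.05. With vehicle replicate 3 alone left out, Ccdc153, Tmem212 and Rsph1 passed the adjusted threshold (3.97, 3.80 and 1.58). The 13 thalamic markers included Ramp3 as the gene that passed, with 9 higher and 4 lower (median 0.16) and 5 higher and 8 lower (median -0.04) without the low-Th libraries. Prkcd, a kinase marker of the thalamus, read 7.04 ± 3.23 against 4.83 ± 1.02 CPM (0.55, adjusted p = 0.085), and the thalamic factor Tcf7l2 24.4 ± 15.9 against 20.7 ± 9.10 CPM. Choroid plexus markers (12) had a median of -0.11, with Ttr, which carries thyroid hormone, at 7.28 ± 7.58 against 17.9 ± 20.9 CPM, and 9 tanycyte markers a median of -0.07. The part of these marker shifts in the calls of Pmch, Hcrt and the other genes was not tested.

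**Figure D2:**
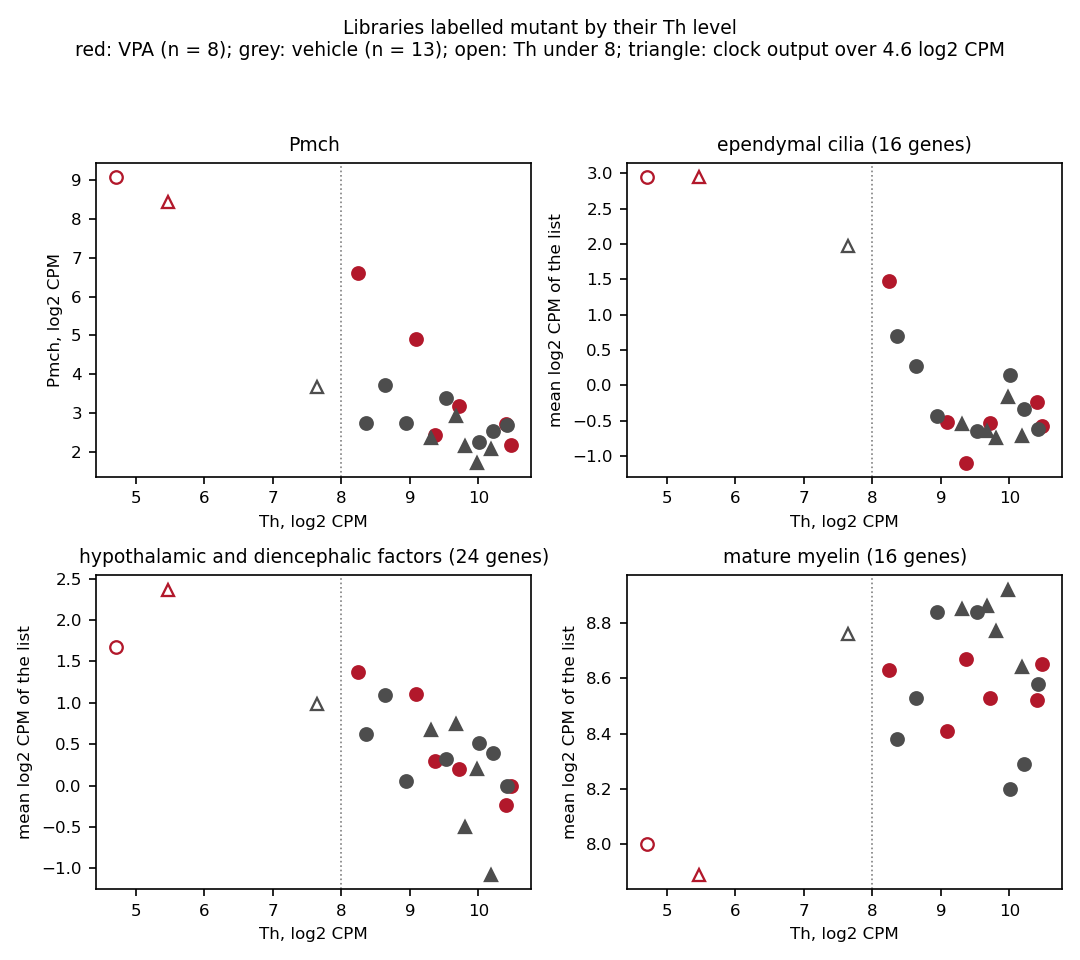
Level of Pmch and mean level of 3 marker lists (16 ependymal cilia, 24 hypothalamic and diencephalic factor and 16 mature myelin genes), in log2 CPM, against Th in log2 CPM for the 8 VPA (red) and 13 vehicle (grey) libraries, with a dotted line at 8. VPA replicates 2 and 8, with the least Th, have the highest Pmch and ependymal values and the lowest myelin values of the 21.

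Glial and vascular genes gave 0 calls by edgeR's test. Mature myelin genes, the products of oligodendrocytes that sheathe axons, were lower in 16 of 16 (median -0.25), 9 of them at an unadjusted p under 0.05 (against 12.6% of all genes). Mbp read 6053 ± 1246 against 7219 ± 852 CPM (-0.25, adjusted p = 0.25). Their summed level was 12200 and 11200 CPM in VPA replicates 2 and 8, 15800 to 20100 in the other 6 VPA libraries and 14900 to 23700 under vehicle. The medians were -0.12 without the low-Th libraries and -0.02 (7 higher, 9 lower) without those of high clock output. Of 16 genes of oligodendrocyte precursors and new oligodendrocytes 10 were lower (median -0.04), 16 astrocyte genes had a median of 0.08, and 16 microglia genes -0.04. Slc1a3, the astrocyte glutamate transporter GLAST, read 671 ± 172 against 541 ± 118 CPM (0.31, adjusted p = 0.21). Of 14 general neuronal genes 11 were lower (median -0.06), among them the neurofilament genes Nefl, Nefm and Nefh at -0.54, -0.69 and -0.82 (adjusted p = 0.20, 0.22 and 0.20).

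Transcripts of the enzymes that VPA inhibits differed by little. Hdac1 read 18.5 ± 0.701 CPM under VPA and 18.4 ± 1.15 under vehicle, Hdac2 90.8 ± 6.77 and 91.0 ± 6.53, Hdac3 98.3 ± 7.14 and 94.8 ± 6.62, and Hdac8 20.1 ± 0.884 and 19.6 ± 1.76 CPM. The differences of these 4 genes were at most 0.05 in size, with standard errors of 0.04 to 0.06. Over the 22 class I deacetylases and corepressors the median was -0.01, over 10 class II and IV deacetylases -0.03, and over 15 acetyltransferases and readers -0.03, with 0 genes passing edgeR's test and 1, 0 and 0 at an unadjusted p under 0.05 (against 12.6% of all genes). The 17 genes chosen as known responders to deacetylase inhibitors split into 9 higher and 8 lower (median 0.04, 0 passing, 3 at an unadjusted p under 0.05). Cdkn1a, the cell cycle inhibitor p21, read 29.1 ± 16.4 against 20.8 ± 17.3 CPM (0.48, SE 0.34, adjusted p = 0.56), and the stress genes Gadd45a and Gadd45b differed by -0.04 and -0.26. The metallothionein Mt1 read 272 ± 34.9 against 225 ± 56.8 CPM (0.27, adjusted p = 0.21). Of 16 clustered and linker histones 10 were higher (median 0.06, 0 passing, 1 at an unadjusted p under 0.05). These measurements were made about 24 hours after the last treatment and cover transcripts, not enzyme activity or histone marks.

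Genes of other proposed targets of VPA had list medians between -0.06 and 0.15. Of 13 genes of the synthesis and transport of GABA, the main inhibitory transmitter, 11 were higher (median 0.08), and 2 had an unadjusted p under 0.05, a share of 15.4% against 12.6% of all genes. Gad1, the main GABA-synthesising enzyme, read 301 ± 83 against 265 ± 87.5 CPM, and Gad2 269 ± 70.2 against 228 ± 43.7 CPM (0.24, adjusted p = 0.30), which became 0.01 without the low-Th libraries. Of 16 GABA receptor genes 13 were higher (median 0.15, 6 or 37.5% at an unadjusted p under 0.05), with a median of 0.06 and 1 such gene without the low-Th libraries. Of 25 sodium, calcium and potassium channel genes 19 were lower (median -0.06, 5 or 20% at an unadjusted p under 0.05), and Scn8a, an axonal sodium channel, read 65.7 ± 14.2 against 81.4 ± 26.2 CPM (-0.31, adjusted p = 0.34). The 16 genes of inositol recycling and GSK3 had a median of 0 (2 or 12.5% at an unadjusted p under 0.05), with the inositol phosphatase Impa1 at 118 ± 8.49 against 120 ± 4.42 CPM. The 14 genes of BDNF and GDNF signalling split into 7 higher and 7 lower (4 or 28.6% at an unadjusted p under 0.05), with Bdnf at 37 ± 7.28 against 38.5 ± 10.2 CPM. Of 30 tested genes that handle VPA and fatty acids 20 were higher (median 0.02), and 4 had an unadjusted p under 0.05, a share of 13.3% against 12.6% of all genes. Cpt1a, which passes fatty acids into mitochondria, read 39.8 ± 3.81 against 40.4 ± 4.55 CPM, and Acsl1, which activates them, 33.3 ± 1.41 against 37.8 ± 4.31 CPM (-0.18, adjusted p = 0.12). None of the genes in these lists passed edgeR's test.

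Clock genes differed along the split in clock output, which is itself defined from 8 of them. Of 21 core clock genes 7 were higher and 14 lower (median -0.10, 4 at an unadjusted p under 0.05, against 12.6% of all genes), and 0 passed edgeR's test. Ciart, a repressor of CLOCK and BMAL1, read 1.05 to 2.35 CPM in 7 VPA libraries and 5.25 CPM in replicate 2. Under vehicle it read 0.963 to 2.05 CPM in 7 libraries and 5.57 to 12.7 CPM in the 6 of high clock output, of which it is part. Its difference was -1.15 (SE 0.44, adjusted p = 0.24), and 0.25 without the 7 libraries of high clock output. Dbp, a transcription factor of clock output, differed by -0.51 (33.6 ± 7.75 against 47.9 ± 26.2 CPM), and by 0.30 without them. Without those libraries 12 core clock genes were higher and 9 lower (median 0.04), 0 at an unadjusted p under 0.05 (against 5.39% of all genes). The 7 libraries were chosen by clock genes and 6 of them are vehicle libraries, so these shifts follow from the choice. Values without them cannot show whether VPA changes clock genes. Arntl and Npas2, a CLOCK paralogue, read 24.3 ± 2.78 against 21.3 ± 5.94 CPM and 4.51 ± 0.829 against 4.10 ± 1.44 CPM. The 16 output genes had a median of -0.02.

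Ribosomal protein genes were slightly and broadly higher: 79 of 81 tested were higher and 2 lower (median 0.15), 27 at an unadjusted p under 0.05 (against 12.6% of all genes, 7.1% higher and 5.54% lower) and 0 past edgeR's adjusted threshold. Their summed level was 21100 to 28500 CPM under VPA and 16200 to 25600 CPM under vehicle, with the lowest values in vehicle replicates 5, 6 and 8, all of high clock output. The median was 0.16 without the low-Th libraries, 0.07 without those of high clock output, and 0.03 (59 higher, 22 lower) without the vehicle mice numbered 48 and over. Genes that respond to glucocorticoids were higher in 17 of 20 (median 0.21), with 1 at an unadjusted p under 0.05, below the share over all genes. Sgk1, an induced kinase, read 229 ± 139 against 171 ± 164 CPM, and Fkbp5, a chaperone of the receptor, 24.0 ± 5.55 against 21.1 ± 5.32 CPM. The list's summed level was 1650 to 1850 CPM in VPA replicates 1 and 3 and vehicle replicates 1 and 10 and ran from 751 to 1260 CPM in the other 17. Interferon-induced genes were lower in 17 of 19 (median -0.26, 4 at an unadjusted p under 0.05), with Gbp3, a guanylate-binding protein, at 3.72 ± 0.818 against 5.26 ± 1.08 CPM (-0.50, adjusted p = 0.14). Their median was -0.14 without the low-Th libraries. Cholesterol synthesis genes were lower in 22 of 24 (median -0.12), with 4 at an unadjusted p under 0.05, near the share over all genes. Hmgcs1, an early step, read 459 ± 81.8 against 521 ± 84.6 CPM (-0.18, adjusted p = 0.37 by edgeR). Without the vehicle mice numbered 48 and over, cholesterol synthesis genes were higher in 17 of 24 (median 0.04). Heat shock and cold-inducible genes were lower in 13 of 17 (median -0.11).

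**Figure D3:**
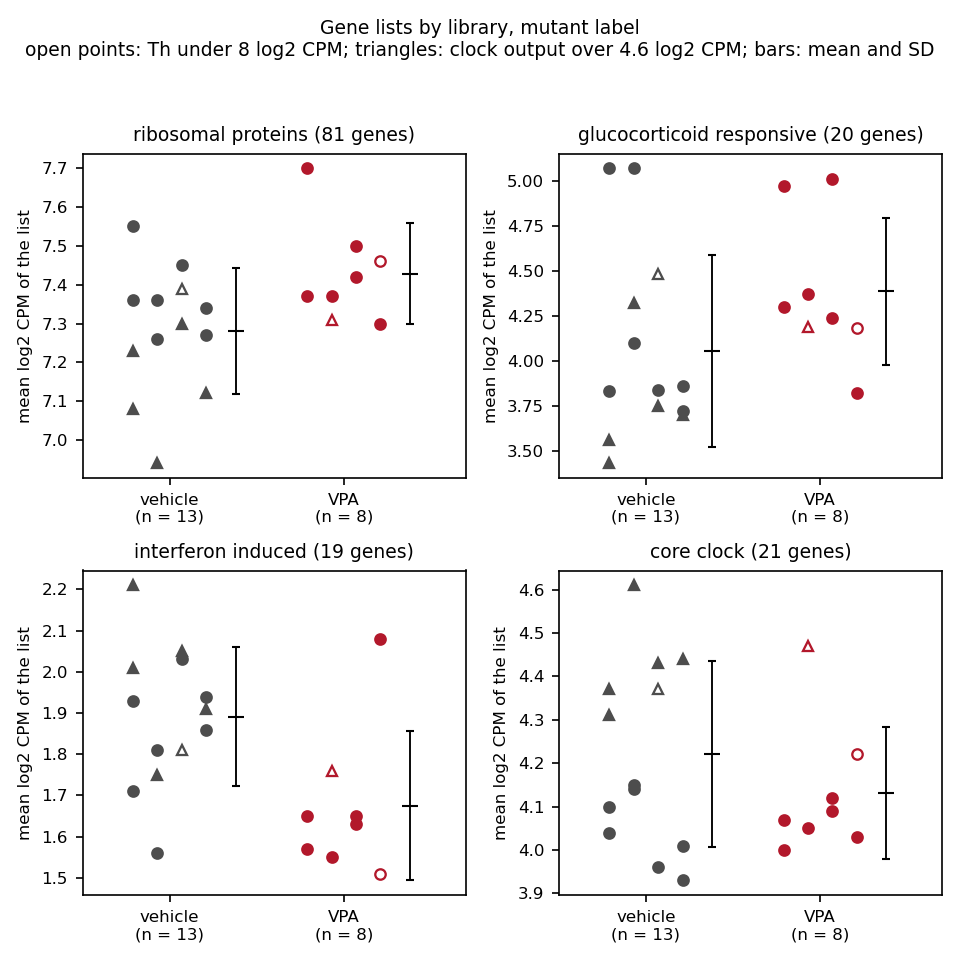
Mean log2 CPM of 4 gene lists (81 ribosomal protein, 20 glucocorticoid responsive, 19 interferon induced and 21 core clock genes) in each vehicle (grey, n = 13) and VPA (red, n = 8) library, open for Th under 8 log2 CPM and triangular for clock output over 4.6 log2 CPM, with mean and SD. The groups overlap in all 4 panels, and 4 libraries, VPA replicates 1 and 3 and vehicle replicates 1 and 10, hold the highest glucocorticoid values.

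**Figure D4:**
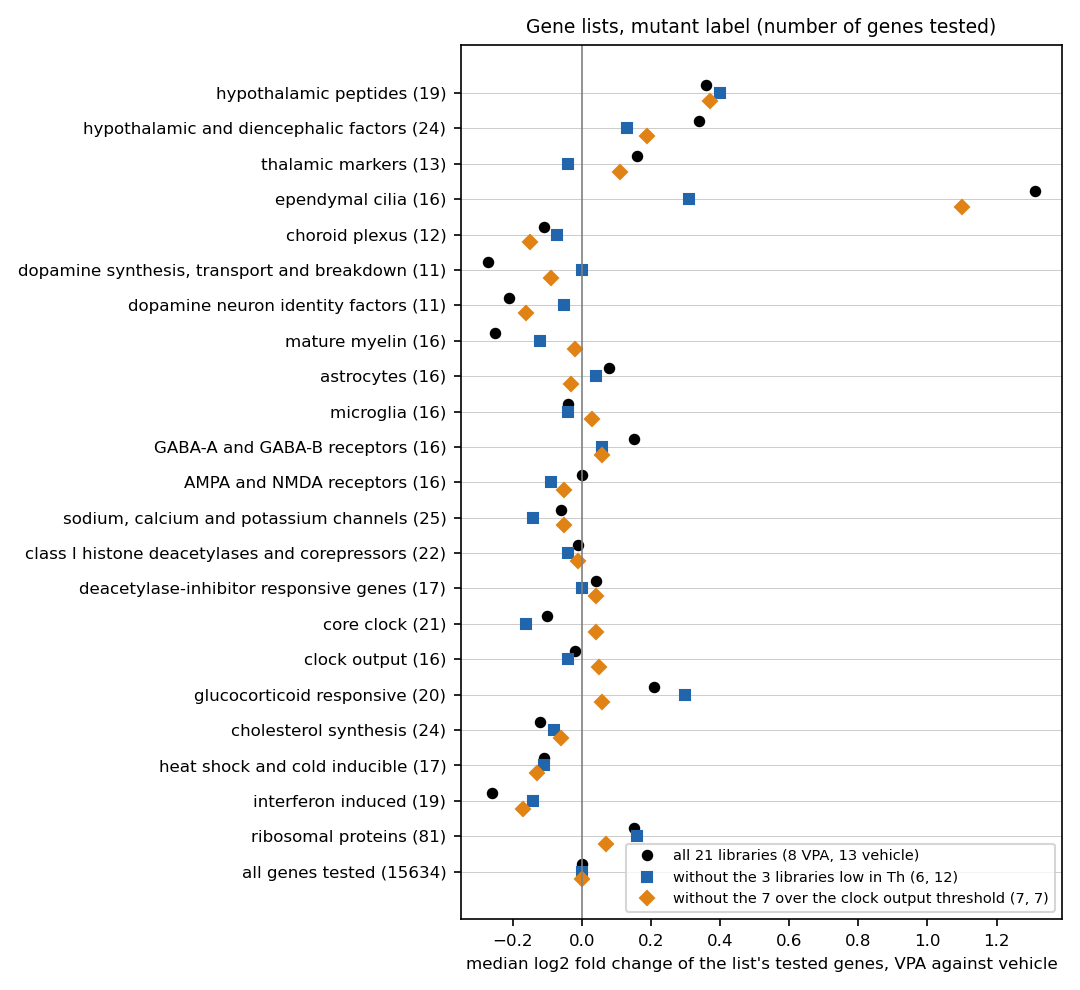
Median log2 difference, VPA minus vehicle, in all 21 libraries, without the 3 libraries low in Th and without the 7 of high clock output. Of the 23 rows the last is all genes tested and the others are gene lists. The ependymal median goes from 1.31 to 0.31 without the low-Th libraries, and that of mature myelin from -0.25 to -0.02 without those of high clock output.

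The same drug in wildtype-labelled mice called 4 of 15634 genes (0.0256%) and had 668 (4.27%) at an unadjusted p under 0.05, with 8 VPA libraries against 3 vehicle libraries. None of the 9 genes of the mutant comparison passed there: the difference of Pmch was 0.66 (SE 0.83), that of Hcrt 1.34 (SE 1.12) and that of Mcm2 -0.05. Wildtype-labelled VPA libraries read 3.73 to 21 CPM for Pmch, and the highest was replicate 3, whose Th of 98.1 CPM was also under 8 log2 CPM. The test of the difference between the VPA effects called 1 gene of 15634 (0.0064%), Lect1 (chondromodulin, a cartilage matrix protein), with 444 (2.84%) at an unadjusted p under 0.05. Lect1 differed between the effects by 1.82 (SE 0.34, adjusted p = 0.029), and passed in 15 of 24 fits that left out 1 library. It failed without any 1 of the 3 wildtype-labelled vehicle libraries, without VPA replicate 2, 4 or 5 and without vehicle replicate 5, 10 or 13 (adjusted p up to 0.892). It read 1.42 ± 0.603 (n = 8) against 1.08 ± 0.327 CPM (n = 13) in mutant-labelled mice and 0.979 ± 0.369 (n = 8) against 2.60 ± 0.492 CPM (n = 3) in wildtype-labelled mice. The 4 next genes by p did not pass: Rlbp1 (0.75), Snhg17 (-1.12), Pmch (3.56, adjusted p = 1.00) and Slc1a5 (-0.84). The larger Pmch difference in mutant-labelled mice was not separable from that in wildtype-labelled mice with 3 wildtype vehicle libraries.

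ACY957 against its own vehicle in mutant-labelled mice called 1 gene (0.0064%), with 987 (6.31%) at an unadjusted p under 0.05. The gene was Nmu, the precursor of neuromedin U, a peptide of feeding and stress, at 8.41 ± 3.23 (n = 8) against 1.15 ± 1.64 CPM (n = 11), a difference of 2.88 (adjusted p = 4.82e-06). Under VPA, Nmu read 0.773 ± 0.480 against 0.782 ± 0.290 CPM, a difference of -0.02. The test of the VPA effect minus the ACY957 effect called 2 genes (0.0128%), with 1057 (6.76%) at an unadjusted p under 0.05. Pmch differed by 4.21 (SE 0.74, adjusted p = 0.00675), with 6.57 ± 2.20 against 6.49 ± 2.50 CPM for ACY957 and its vehicle, and Nmu by -2.90 (SE 0.58, adjusted p = 0.0473). With 1 of the 21 VPA and vehicle libraries left out, Pmch passed in 20 fits and failed without VPA replicate 8 (3.35, adjusted p = 0.108). Nmu passed in 8 of the 21, without VPA replicate 1, 3, 4 or 5 or vehicle replicate 1, 5, 6 or 13, and failed in the other 13. Hcrt (4.12, adjusted p = 0.0515), Ergic1 and Atf4, the factor of the integrated stress response, followed without passing. The ACY957 libraries held no Th value under 8 log2 CPM, and without the low-Th VPA and vehicle libraries 0 genes passed edgeR's test of this difference. Pmch then differed by 1.97.

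**Figure D5:**
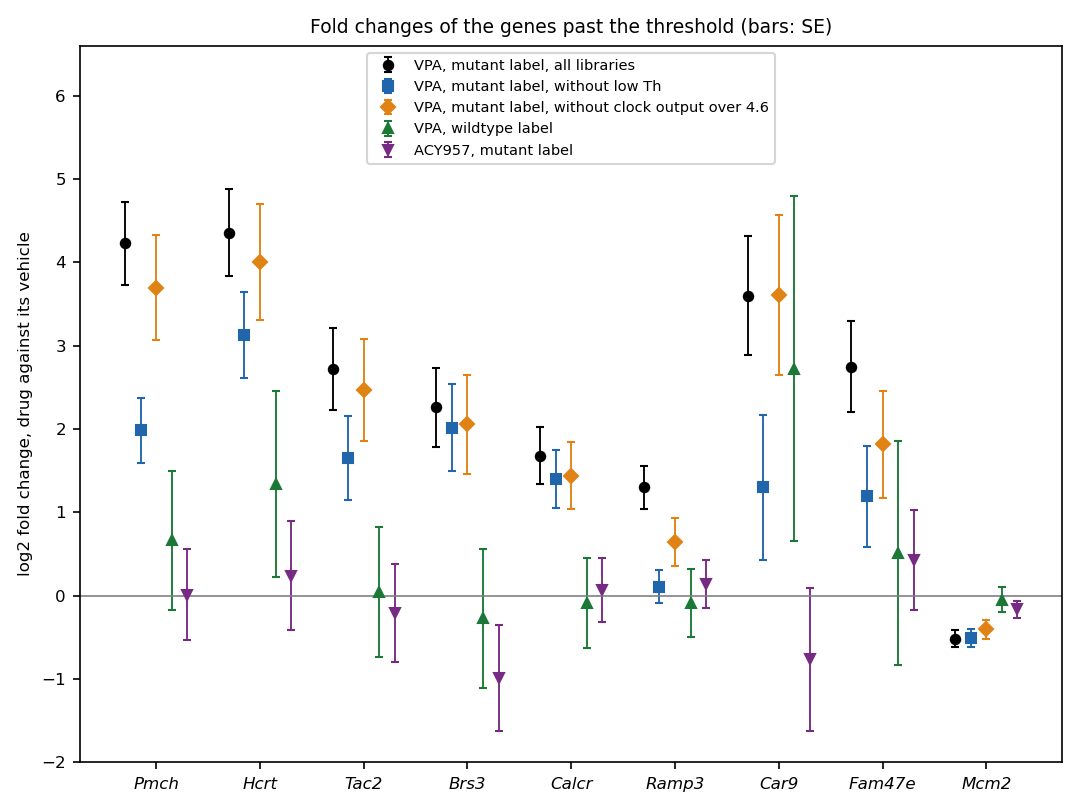
Log2 difference with its standard error for the 9 genes that passed, in 5 comparisons: VPA against vehicle in all mutant-labelled libraries, without those low in Th, without those of high clock output, in wildtype-labelled mice, and ACY957 against its vehicle in mutant-labelled mice. The ACY957 values of Pmch and Hcrt (0.01 and 0.24) lie near 0, and Ramp3 stands at 1.30 in all libraries and at 0.11 without those low in Th.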

How the data were processed

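Per the design text and the labels, RNA of ventral tegmental area punches from individual mice was made into stranded poly(A) libraries (TruSeq) and sequenced on a NextSeq 500. The authors deposited 1 table of raw read counts per gene symbol (24421 symbols, 3945 of them at 0 in all 64 libraries, 0 columns without a sample), counted with HTSeq 0.6.1 in union mode on mm10 per the design text. That text names TopHat2 2.0.9 as the aligner, and the submitters' processing notes name Trimmomatic and HISAT2, so the aligner is not settled. Whether counting used strand is not stated, so overlapping and antisense genes cannot be told apart.

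Groups were taken from the treatment and genotype labels. Counts were tested with edgeR 4.0.16 in R 4.3.3 (TMM scaling, filterByExpr, quasi-likelihood F test, 8 group means over all 64 libraries, Benjamini-Hochberg threshold 0.05 over 15634 genes), and SE is the log2 difference over the square root of F. CPM are counts scaled to the TMM library size, and log2 CPM used a prior count of 0.5. A gene list is described by counts and its median only. The comparison and its 53 gene lists were chosen with earlier results of these data known. Named are Clock and Th, the genes past the threshold (up to 15 a direction), up to 4 members in list order of lists with fewer than 3 such genes, and the 5 of smallest p in each test of a difference; a few of these genes are not reported here. Alternatives were DESeq2 1.42.0, limma 3.58.1 voom, sva 3.50.0, other scalings, filters and sample sets, and leaving out each of the 21 libraries in turn (for the difference between genotype labels also each of the 3 wildtype-labelled vehicles; no wildtype-labelled VPA, ACY957 or ACY957 vehicle library was left out). On counts simulated for this comparison (15549 genes), 77% of 100 genes changed by 1.5-fold and 89% of 100 changed by 2-fold were recovered, with 1 false call of 167. Each gene was drawn independently around a single mean for all libraries, apart from the changes put in. The simulation held no differences in Th, clock output or mouse number, so its rates do not cover libraries that differ in these. Gene coordinates are from GENCODE M21 (mm10), which matched 23376 symbols, and promoters from RefSeq (GRCm38.p6).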

Additional observations from a re-analysis of the deposited data

Results flagged for a closer look

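Clock output in VPA replicate 2 was 5.0 log2 CPM, far from the other 7 mutant-labelled VPA libraries (4.04 to 4.32): its gap to the next library was 0.713 of the group's range, above Dixon's 95% limit for 8 libraries. It was the 1 flag among 13 such checks, and chance flags about 1 in 20. The same library was low in Th (44.1 CPM).

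The VPA effect on Lect1 differed between mutant-labelled and wildtype-labelled mice by 1.82 (SE 0.34, adjusted p = 0.029 by edgeR's interaction test). In wildtype-labelled mice the difference was -1.41 (adjusted p = 0.0224), against 3 vehicle libraries, and in mutant-labelled mice 0.41 (adjusted p = 0.39). The difference passed in 15 of 24 fits that left out 1 library and in 0 of the 3 that left out a wildtype-labelled vehicle library.

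The effects of VPA and ACY957 in mutant-labelled mice differed for Pmch by 4.21 and for Nmu by -2.90 (adjusted p = 0.00675 and 0.0473). With 1 of 21 libraries left out the Pmch difference passed in 20 fits and the Nmu difference in 8, and in 12 other settings they passed in 4 and 2. Nmu read 1.92 to 12.2 CPM in the 8 ACY957 libraries, 0.390 to 6.02 CPM in the 11 of its vehicle, and 0.114 to 1.45 CPM in the 8 VPA libraries.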

How the results depend on the processing

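The count of 9 genes was the same with RLE size factors and with robust dispersions, and 7 with a term for mouse numbers of 48 and over, which shared 6. It was 29 with DESeq2 and 20 without a low-count filter, each holding all 9, and 145 with both vehicles pooled, holding all 9 too. It was 0 with limma voom (1860 at an unadjusted p under 0.05), with the compared groups fitted alone (1363), without the vehicle mice from number 48 on (645), without the libraries low in Th or of high clock output (460), without those under 8.5 or under 9 log2 CPM for Th, and with mice 25 to 35 alone. It was 2 without the low-Th libraries, 2 without those of high clock output and 2 with Th as a covariate, Pmch and Hcrt each time, and 3 with surrogate variables, none of them among the 9. Leaving out 1 library gave 3 to 269 genes: 3 without VPA replicate 2, 4 without VPA replicate 8, 123, 135, 196, 48 and 73 without VPA replicates 1, 3, 4, 5 and 6, and 46, 269 and 22 without vehicle replicates 1, 3 and 10.

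Ramp3 turned to -0.18 without the libraries low in Th or of high clock output. The other 8 genes kept their sign in the alternatives that were run. Brs3, Car9 and Fam47e were not run with the compared groups alone, where the filter removed them. Of 189 uncalled list members, 5 (Otp, Prkcd, Rsph1, Ccdc153 and Tmem212) passed in some setting, 22 fits in all, and 0 changed sign on passing; DESeq2 called 0 of the 189.

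The difference between the VPA effects gave 2 genes without a filter (Gnrh1, Lect1) and 0 with the compared groups alone, without the low-Th libraries, without the later vehicles, without high clock output, without either kind, and with surrogate variables, and 0 to 1 with 1 library left out (1 in 15 of 24 fits). The VPA effect minus the ACY957 effect gave 4 genes with DESeq2, Pmch and Nmu among them. It gave 1 of these 2 genes without a filter and 1 with robust dispersions. Without high clock output it gave 1 gene, which was neither Pmch nor Nmu. The count was 0 with voom, with the compared groups alone, with Th as a covariate and with surrogate variables. It was also 0 without the low-Th libraries, without the later vehicles and without either kind, and 0 to 4 with 1 library left out. Low-Th and high clock output libraries were left out only among the 21 mutant-labelled VPA and vehicle libraries. Of the mutant-labelled libraries, 2 of ACY957 and 3 of its vehicle had high clock output and stayed in. The wildtype-labelled libraries stayed in too, among them VPA replicate 3 with Th at 98.1 CPM. The causes were not tested. The Th levels of 8.5 and 9, the mouse-number term and mice 25 to 35 alone were chosen after seeing the data. No paired analysis was possible because the labels carry mouse numbers only and replicate numbers follow accession order. Genes under about 1 CPM rest on few reads.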

Other observations

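Several receptor and matrix genes outside the peptide group were higher without passing, and are named after their values were seen. The serotonin receptor gene Htr3a, of an ion channel receptor, read 2.48 ± 0.790 CPM (n = 8) under VPA against 1.46 ± 0.523 CPM (n = 13) under vehicle, a log2 difference of 0.77 (adjusted p = 0.10 by edgeR) and 0.73 without the low-Th libraries. Htr7, another serotonin receptor gene, read 35.3 ± 10.7 against 27.8 ± 3.43 CPM (0.35, adjusted p = 0.099). The matrix gene Fbln1 read 9.67 ± 3.84 against 6.18 ± 2.13 CPM (0.65, adjusted p = 0.073). The GABA receptor subunit gene Gabre read 2.62 ± 1.15 against 1.63 ± 0.576 CPM (0.69, adjusted p = 0.085), and 0.48 remained of its difference without the low-Th libraries.

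Pttg1, of the mitotic chromosome machinery, read 1.56 to 2.99 CPM in the 8 VPA libraries and 1.21 to 29.1 CPM under vehicle, with a vehicle median of 2.30 (-2.26, adjusted p = 0.19).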
